A study of Mus musculus with 36 samples.

Results

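Circular RNAs (circRNAs) of 9 glutamate receptor genes were described in the mouse hippocampus and frontal cortex over the light-dark (LD) cycle. The genes encode the AMPA receptor subunits Gria1, Gria2, Gria3 and Gria4, the NMDA receptor subunits Grin2a and Grin2b, the kainate receptor subunit Grik2, and the metabotropic receptors Grm5 and Grm7. A circRNA was assigned to a gene when both of its ends lay inside the gene on the gene's strand (GENCODE M21 on GRCm38). By this rule, 132 of the 33261 circRNAs listed for either tissue belonged to these genes, and none of them also lay in another gene of the same strand. All 9 genes had circles. Of all circRNAs, 29475 lay inside a gene, and they came from 6592 host genes.

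Glutamate is the main excitatory transmitter of the brain. AMPA, NMDA and kainate receptors are ion channels that open when glutamate binds, and metabotropic receptors act through G proteins. CircRNAs arise when the end of an exon is spliced back to the start of the same or an earlier exon, and neurons are rich in them because many neuronal genes have long introns and because closed circles lack the free ends that exonucleases attack.

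The study sampled adult male C57BL/6 mice (C57BL6/N in its methods) kept at 12 h light and 12 h dark, without further treatment or genetic change. Hippocampi and frontal lobes were taken in the light phase (zeitgeber times ZT1, ZT5, ZT9) and in the dark phase (ZT13, ZT17, ZT21), with 3 biological replicates per tissue and time and 36 samples in all. Total RNA of whole tissue was depleted of ribosomal RNA, so a lower level in one tissue can mean fewer cells of a type or less RNA per cell, and these cannot be told apart. The files give counts of circular reads, which cross the head-to-tail junction of a circle. Linear counts were not used here, so a change of a circle and a change of its whole host gene cannot be told apart either.

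A hippocampus sample had 6754 to 73252 circular reads and a cortex sample 8107 to 34803, and 3 samples stood apart in depth, hippocampus ZT1 replicate 3 (73252 reads), hippocampus ZT13 replicate 1 (6754 reads) and frontal cortex ZT9 replicate 3 (8107 reads). The tissue labels were compared with lists of marker genes, again by their circles. Circles of the 6 hippocampal markers, of which Grik4 is itself a glutamate receptor gene, had a summed level of 22.5 to 55.9 reads per 10000 circular reads in the hippocampus and 5.23 to 30.3 in the cortex, with Lct at 0. Prox1, Zbtb20 and Trpc6 were higher in the hippocampus by the test described for the receptor genes. Microglial markers were at 0 in all samples.

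The junction sequences show which exons the receptor circles join. For each, the last 15 bases of the circle's final exon are in lower case and the first 15 bases of its first exon, to which they are joined, are in capitals, read 5′ to 3′ on the gene's strand from the GENCODE M21 transcripts. Exons are numbered on one annotated transcript per gene, Grm5-202 in the case of Grm5. The first set is the 6 circles with the most circular reads. The second shows further circles of AMPA and NMDA receptor subunits for comparison, and these do not all span the same exons.
Grin2b exons 6 to 10 (chr6:135772193-135780336, minus strand): ctgagtgacaagaagGTGGGAAAATGGAAA
Grm5 exons 2 to 3 (chr7:87596116-87603201, plus strand): ctgtgcacacagaagGTGATTTTACCCAAA
Grm5 exon 9 (chr7:88074191-88075130, plus strand): tggggaaaccctaagGTTGTGATTTGATCC
Grin2a exon 2 (chr16:9761391-9761983, minus strand): acacactctgcaccaGATCCGACATCCACG
Grik2 exons 2 to 6 (chr10:49523682-49578302, minus strand): gatggatttatgacgGTGGTATATTTGAAT
Grin2b exon 4 (chr6:135922872-135923470, minus strand): taacatgctgaatagGATGAGTCCTCCATG
Gria1 exons 3 to 5 (chr11:57185793-57201179, plus strand): atcctcgccaacctgTCTGTTCCCAGTTCT
Gria2 exons 3 to 5 (chr3:80726832-80741198, minus strand): atcattgcaaatctgTCTGCTCCCAGTTTT
Gria2 exons 3 to 6 (chr3:80722032-80741198, minus strand): acagcgacaattaagTCTGCTCCCAGTTTT
Gria3 exon 3 (chrX:41478560-41478799, plus strand): atgacacagaacgagTCTGCTCCCAGTTCT
Grin2a exons 4 to 9 (chr16:9644099-9669910, minus strand): cagcttgaaaactggGTGGGCAAGTGGGAG

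The capitals make the repeated use of one exon visible in Gria1, Gria2 and Gria3. Exon 3 opened the circles with the most reads in Gria1 (15 reads), Gria2 (122) and Gria3 (13). In Gria1 and Gria3 that lead was narrow, as the next circles had 14 reads (Gria1 exons 3 to 11) and 12 reads (Gria3 exons 6 to 10). In the cortex, Gria3 exons 6 to 10 had 8 reads and exon 3 had 2. The first 15 bases of exon 3 were identical at 13 positions between Gria1 and Gria2, and at 14 between Gria3 and either of them. Gria1 and Gria2 also closed at exon 5 in one circle each, and the spliced sequences of these circles (479 and 491 nt) were 66.8% identical when aligned end to end. In Gria2, the circles of exons 3 to 5 and 3 to 6 shared their upstream end and differed by exon 6. In all, 4 circles of Gria2 used that end, and together they held 87.6% of its circular reads. Circles that opened at exon 3 held less of the other genes, 29% of the Gria1 reads and 47.2% of the Gria3 reads. The circles of Gria4 opened at exons 4, 5, 6 and 8 of its transcript.

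In the NMDA receptor genes, exon 2 of Grin2a and exon 4 of Grin2b formed single-exon circles of 593 and 599 nt, the longest internal exon in each transcript, and they were 67.5% identical. The Grin2a circle of exons 4 to 9 (1046 nt) and the Grin2b circle of exons 6 to 10 (885 nt) were 62.6% identical and shared 11 of the 15 bases after the junction. For comparison, single-exon circles of genes from different receptor classes had a median identity of 39.1% and a highest one of 52.4%. These pairs include exons of unequal length, which lowers the identity of an end-to-end alignment. Of like length were Gria2 exon 3 and Grm5 exon 5 (240 and 236 nt), with 51.8%. Multi-exon circles of different classes were not aligned. In the metabotropic genes, exon 9 of Grm5 (940 nt) and exon 8 of Grm7 (936 nt) each formed a single-exon circle. They were 50.3% identical, below the highest value between classes. These identities describe sequences of paralogous genes, and they were not tested.

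**Figure D1:**
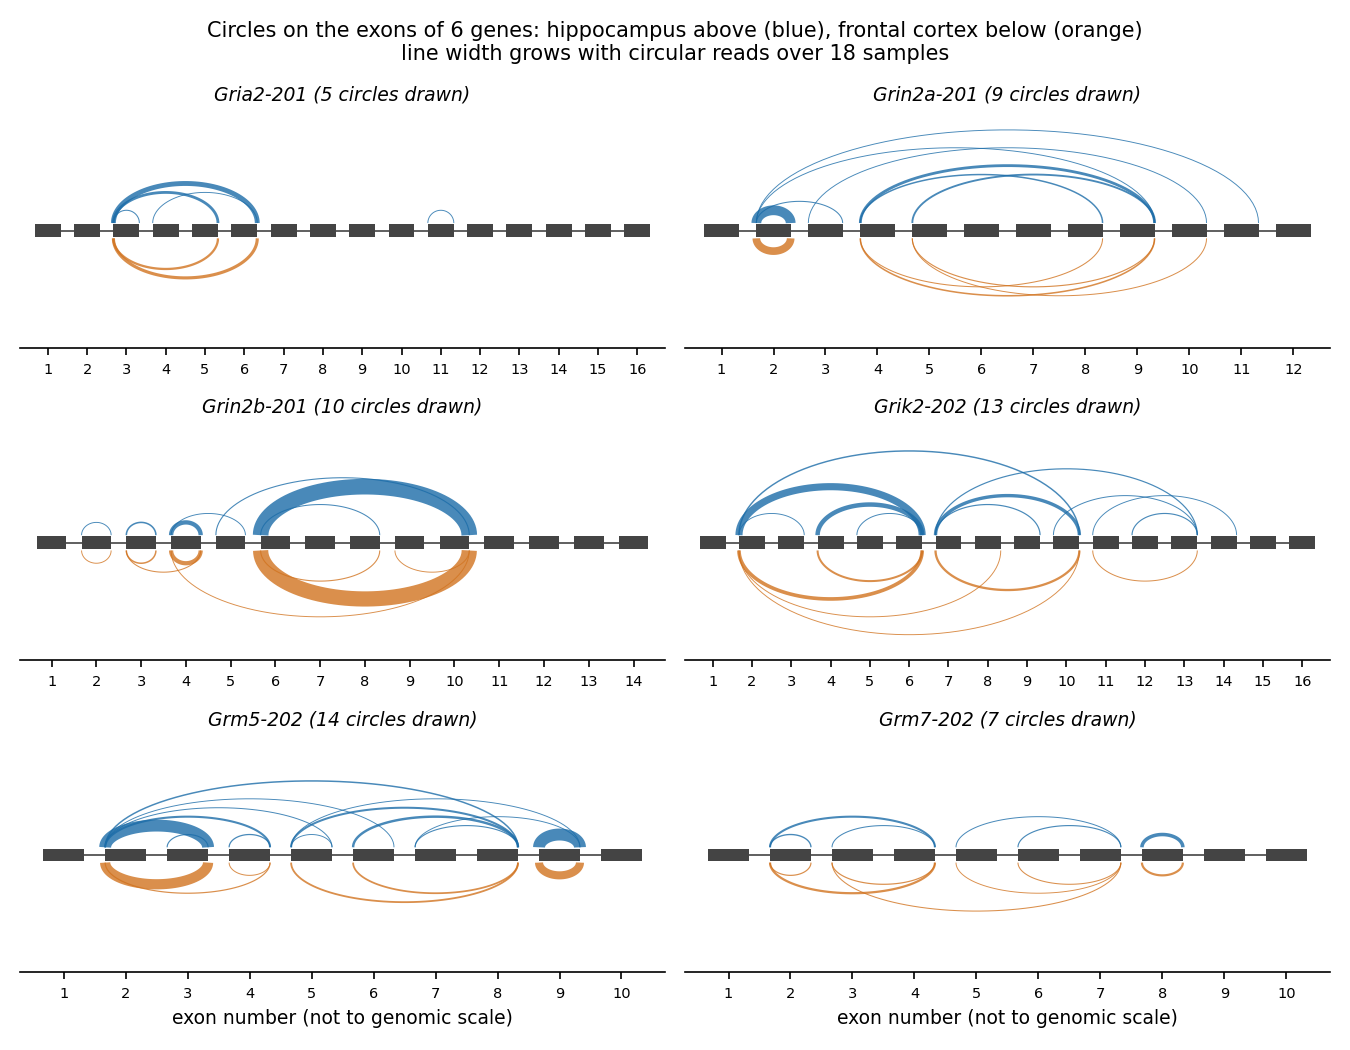
Circles on annotated exon ends in 6 genes, drawn on one transcript each, with exon numbers on the x axis (not to genomic scale); arcs above the exons are hippocampus and arcs below are frontal cortex, and line width grows with the reads summed over 18 samples. The 58 circles drawn include none that uses exon 1 or the last exon, and in Grin2b one circle of exons 6 to 10 outweighs the others in both tissues.

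Most circular reads of the receptor genes came from few circles. Of the 132 circles, 19 had at least 25 reads, and they held 2657 of the 3137 reads (84.7%). The median circle had 3 reads in all 36 samples together. Found in 1 sample were 75 circles (56.8%, against 57.3% of all circles inside genes). In both tissues were 36 circles (27.3%, against 33.7%), while 64 were listed in the hippocampus alone (48.5%, against 39.1%) and 32 in the cortex alone (24.2%, against 27.1%). With a circle required in 2 or more replicates at any time point, 34 hippocampal and 19 cortical circles remained.

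Both ends lay on annotated exon ends in 80 circles (60.6%, against 71.7% of all circles inside genes). These held 94.6% of the reads, against 90.7% of the reads inside all genes. The other 52 circles had 168 reads, at most 29 each. A transcript with both ends was found for 77 circles. Of these, 68 were wholly coding, 8 partly coding and 1 non-coding. They had 1 to 10 exons (median 3) and a spliced length of 188 to 2181 nt (median 653). None held exon 1 or the last exon of the transcript matched to it.

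Single-exon circles made up 14 of the 80 (17.5%), against 4.06% of such circles over all host genes, and gave 32.1% of these reads against 16.4%. Grm5 exon 9 had 352 reads, Grin2a exon 2 had 303, Grin2b exon 4 had 132 and Grm7 exon 8 had 78, and each of these 4 is the longest internal exon of its transcript. Gria2 exon 11 is also the longest internal exon of its transcript, and its circle had 2 reads. The 8 circles that hold the start codon came from Grm5 and Grin2b, led by Grm5 exons 2 to 3, a circle of 1003 nt of which 658 are coding. Introns on both sides were longer than the median intron of the transcript in 47 of the 77 circles.

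Levels are given as circular reads per 10000 circular reads of a sample, as mean ± SD over 18 samples per tissue. Each circle was counted at its single junction, so levels were not divided by length, and a gene's level is the sum over its circles. In the hippocampus, Grm5 was highest (12.99 ± 3.50), followed by Grin2b (9.82 ± 2.90), Grik2 (6.72 ± 2.48) and Grin2a (5.78 ± 2.09). Next came Gria2 (2.81 ± 1.68), Grm7 (2.75 ± 1.62), Gria1 (1.81 ± 1.62), Gria3 (0.423 ± 0.621) and Gria4 (0.119 ± 0.349). Neighbours in this order differed by no more than the larger of their SDs, except Grin2b above Grik2 and Grin2a above Gria2.

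In the frontal cortex, Grin2b came first (10.9 ± 3.75), then Grm5 (9.93 ± 3.49), Grin2a (4.31 ± 1.91), Grik2 (3.26 ± 1.85), Gria2 (2.35 ± 1.74), Grm7 (2.28 ± 1.48), Gria3 (0.509 ± 0.834), Gria1 (0.449 ± 0.890) and Gria4 (0.191 ± 0.612). Only the steps from Grm5 to Grin2a and from Grm7 to Gria3 exceeded the SD of both genes. Grm5 ranked 146 and Grin2b 169 by reads among the 6592 host genes. Gria4, an AMPA receptor subunit known from interneurons and early development, had 4 circles with 8 reads in all, and Gria3 had 6 circles with 36 reads.

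**Figure D2:**
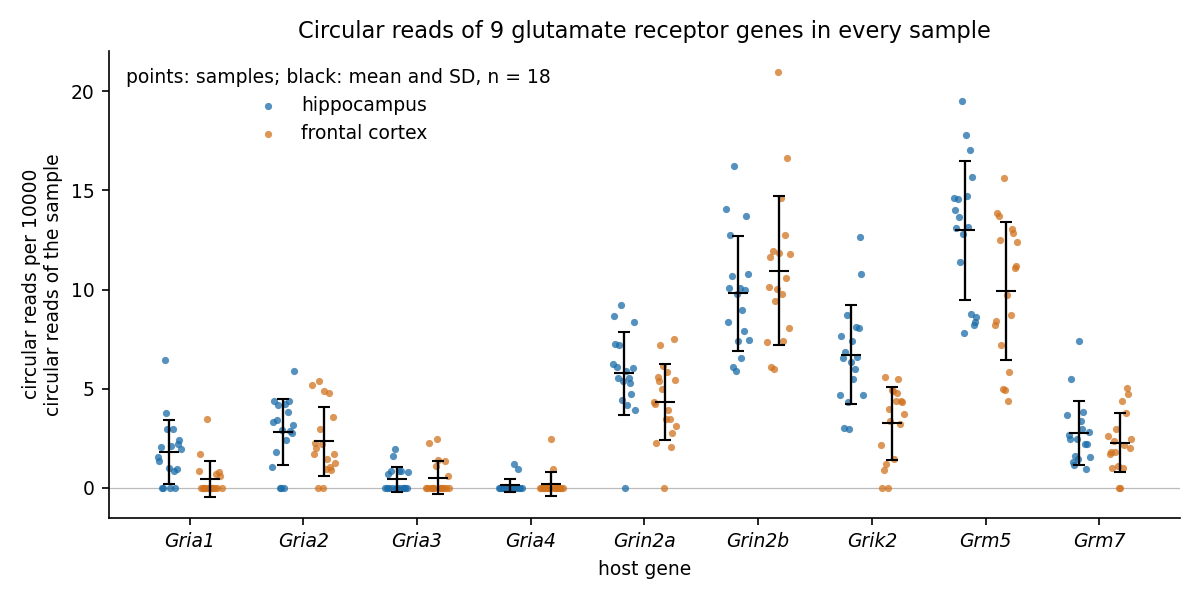
Level of each receptor gene in every sample (y axis, circular reads per 10000 circular reads of the sample; x axis, host gene; blue, hippocampus; orange, frontal cortex), with the mean and SD of 18 samples in black. Grik2 reached 12.6 in the hippocampus and at most 5.58 in the cortex, while the points of Grin2b overlap over nearly their whole range.

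The tissue difference was tested on the sum of circular reads per host gene, with time in the model, over the 792 genes with enough reads. Grik2, a subunit of pre- and postsynaptic kainate receptors, was higher in the hippocampus. It had 292 reads there and 123 in the frontal cortex. Hippocampal levels ran from 2.96 to 12.6 (median 6.57), all 18 samples being above 0. Cortical levels ran from 0 to 5.58 (median 3.84), with 16 of 18 samples above 0. The ranges of the tissues overlapped between 2.96 and 5.58, a band that held the cortex median and most cortex samples. Above the highest cortex sample lay 12 of the 18 hippocampus samples. The log2 fold change (hippocampus minus cortex) was 1.08 (SE 0.24, adj. p-value 0.000421, quasi-likelihood test of edgeR, Benjamini-Hochberg adjusted), and 1.09 without the 3 samples of extreme depth.

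Grik2 was the one gene called of the 6 receptor genes that entered this test. Of all host genes tested, 31.3% were called (127 higher in the hippocampus and 121 higher in the cortex), so that 1 of 6 is not more than among all genes. The median log2 fold change was 0.25 over the 6 receptor genes and 0.028 over all genes tested. The choice of these 6 rests on the filter on low counts, which Gria1, Gria3 and Gria4 did not pass.

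The 3 leading Grik2 circles each had more reads in the hippocampus. The circle of exons 2 to 6 had 121 and 54 reads, that of exons 4 to 6 had 70 and 23, and that of exons 7 to 10 had 49 and 28. The first 2 share their downstream end and so part of their sequence. None passed the filter for a test of single circRNAs. Without the filter, the circle of exons 2 to 6 had a log2 fold change of 1.12 (SE 0.37, adj. p-value 0.0491 by edgeR), just inside the threshold. It passed the filter in 34 of the 36 fits that left out 1 sample each, with adj. p-values from 0.00526 to 0.0820, and was called in 11 of them. The filter was looser in the fits that left out 1 sample, which tested 805 to 844 circRNAs against 710 in the main fit. They are thus not a like repeat of the main test. Without the filter, the circle of exons 4 to 6 had 1.68 (SE 0.61, adj. p-value 0.0865) and that of exons 7 to 10 had 1.13 (SE 0.58, adj. p-value 0.407).

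By time point, Grik2 levels of the tissues did not overlap at ZT1, where the hippocampus samples had 4.69, 7.68 and 6.55 and the cortex samples 2.16, 0 and 0.895. They also did not overlap at ZT13, ZT17 and ZT21, and they overlapped at ZT5 and ZT9. At ZT21 the nearest values were 4.69 in the hippocampus and 4.35 in the cortex. These are the same samples as in the tissue test, so they add no separate evidence. How many of the other host genes were separated in this way was not counted. Circles of some marker genes also differed between the tissues. Those of the 6 choroid plexus markers had a summed level of 0 to 8.74 in the hippocampus and 0 to 3.48 in the cortex. Trpm3, which was called, alone held 173 and 9 reads, and Ttr, Kl, Clic6 and Folr1 were at 0. Circles of the 6 striatal markers had 0 to 0.842 and 0 to 4.40, of which Rarb alone held 2 and 67 reads, with Drd1, Drd2 and Adora2a at 0. No striatal, oligodendrocyte, astrocyte or thalamic marker entered the test. The part of the choroid plexus, striatal and hippocampal markers in the Grik2 difference was not tested.

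Gria1, a subunit of AMPA receptors that enter synapses during plasticity, had 83 reads in the hippocampus and 17 in the cortex. Its level was between 0 and 6.46 in the hippocampus (median 1.76) and was above 0 in 14 of 18 samples. In the cortex it was between 0 and 3.48 (median 0) and was above 0 in 6 of 18. The highest hippocampus sample, ZT5 replicate 3, held 17 of the 83 reads. Gria1 did not pass the filter on low counts. When all 6592 host genes were fitted without the filter, it was higher in the hippocampus by a log2 fold change of 2.59 (SE 0.64, adj. p-value 0.00280 by edgeR). All cortex samples of ZT5 and of ZT13 had 0 Gria1 reads, so this fit held groups with no reads of the gene. The size of the estimate rests in part on these groups. Its circles of exons 3 to 11 (14 reads) and 9 to 11 (13 reads) were listed in the hippocampus alone, in 6 and 5 of its 18 samples.

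Grm5, a receptor coupled to Gq proteins and found mainly behind the synapse, had 550 and 370 reads. Its level was between 7.82 and 19.5 in the hippocampus (median 13.4) and between 4.38 and 15.6 in the cortex (median 10.4), and the ranges overlapped widely. The log2 fold change was 0.33 (SE 0.14, adj. p-value 0.0715 by edgeR), short of the threshold. It passed when counts were scaled to total circular reads (0.37, adj. p-value 0.0376), and in 7 of the 36 fits that left out 1 sample each, with the largest value, 0.51, without frontal cortex ZT9 replicate 2.

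The main Grm5 circles were also tested singly, and the difference between them was not tested. The circle of exons 2 to 3 had a level of 4.82 ± 2.25 in the hippocampus and 4.88 ± 2.22 in the cortex, with a log2 fold change of -0.013 (SE 0.20, adj. p-value 0.987 by edgeR). The circle of exon 9 had 5.11 ± 1.77 and 3.67 ± 1.54, with 0.45 (SE 0.21, adj. p-value 0.0982), and 0.48 (adj. p-value 0.0368) without the 3 samples of extreme depth. Both were found in 18 of 18 hippocampus samples.

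In the NMDA receptor genes, Grin2b, the subunit that prevails in early life, had 421 and 384 reads. Its level was between 5.92 and 16.2 in the hippocampus (median 9.88) and between 6.01 and 20.97 in the cortex (median 10.3). The log2 fold change was -0.15 (SE 0.15, adj. p-value 0.480 by edgeR). Its circle of exons 6 to 10 was found in all 36 samples and held 69.6% of the reads of the gene, with 284 reads in the hippocampus and 276 in the cortex and a log2 fold change of -0.25 (SE 0.13, adj. p-value 0.141). Grin2a, whose subunit rises after birth, had 268 and 161 reads and a log2 fold change of 0.41 (SE 0.21, adj. p-value 0.144). Its exon 2 circle held 70.6% of these reads and gave 0.21 (SE 0.22, adj. p-value 0.522).

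Of the receptor genes, 4 circles entered the test of single circRNAs between tissues, the 2 of Grm5, that of Grin2b and that of Grin2a. None was called, and 1 had an unadjusted p-value under 0.05 (Grm5 exon 9). DESeq2 also called none. Among all 710 circRNAs tested, 30.6% were called.

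The remaining genes tested showed smaller differences relative to their errors. Gria2, the subunit that makes AMPA receptors impermeable to calcium, had 139 and 87 reads, with a level between 0 and 5.87 in the hippocampus (median 3.06) and between 0 and 5.41 in the cortex (median 1.88). Its log2 fold change was 0.17 (SE 0.39, adj. p-value 0.783 by edgeR). Leaving out 1 sample each gave values from -0.51, without hippocampus ZT9 replicate 3, to 0.39, so that its sign rests on that sample. Replicates 1 and 2 of that group had 0 Gria2 reads, so the fit without replicate 3 held a group with no reads of the gene. Grm7, a presynaptic receptor with a low affinity for glutamate, had 108 and 90 reads and a log2 fold change of 0.15 (SE 0.33, adj. p-value 0.783), with a range of 0.0011 to 0.45 when 1 sample was left out.

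**Figure D3:**
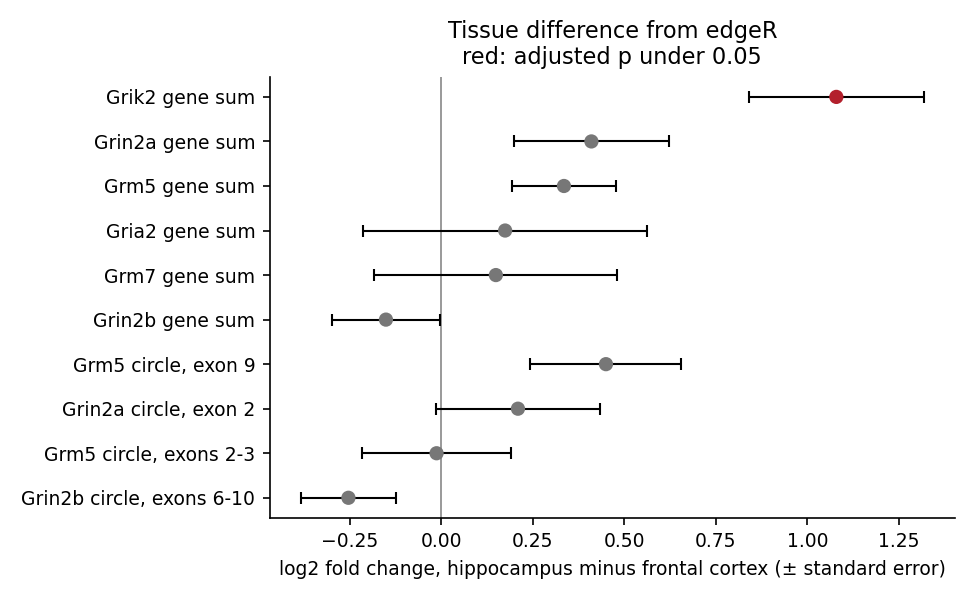
Log2 fold change between tissues (x axis, hippocampus minus frontal cortex; bars, standard error from edgeR) of the 6 host gene sums and the 4 single circles that passed the filter on low counts; red marks an adjusted p-value under 0.05. Grik2 alone is red, at 1.08, and the other gene sums lie between -0.15 and 0.41.

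The number of circles found followed the depth of a sample. In the hippocampus 9 to 46 circles of the receptor genes were found per sample, and in the frontal cortex 6 to 23, with the fewest in the hippocampus in its shallowest sample and the most in its deepest. By time, 52, 41, 35, 29, 27 and 39 circles were found at ZT1, ZT5, ZT9, ZT13, ZT17 and ZT21 in the hippocampus, and 24, 19, 26, 26, 27 and 34 in the cortex. The 52 circles at ZT1 include the sample with 73252 reads. At one common depth of 6754 circular reads, the expected number was 6.98, 7.23, 6.96, 7.86, 7.04 and 7.12 circles per sample in the hippocampus, and 5.10, 5.39, 5.85, 5.46, 5.75 and 5.94 in the cortex. Within a tissue, the means of the time points lay closer together than the 3 hippocampus samples of ZT9, whose SD was 2.04. They lay further apart than the hippocampus samples of ZT1, which ran from 6.68 to 7.36. The differences between time points were not tested.

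**Figure D4:**
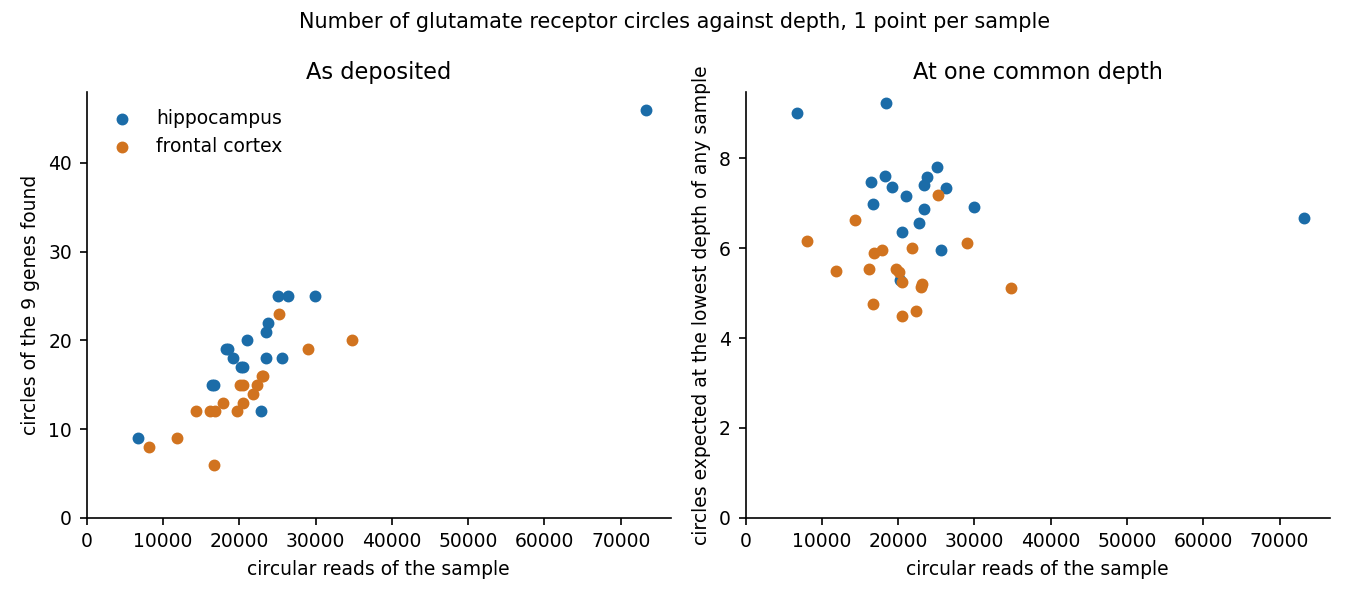
Circles of the 9 receptor genes per sample (y axis) against the circular reads of the sample (x axis), uncorrected on the left and expected at 6754 reads on the right; each point is a sample. Uncorrected, the deepest sample has 46 circles, and at the common depth it has 6.68, within the range of 5.30 to 9.24 of the hippocampus samples.

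Genes differed in how often a circle was found. Grm5 had 10, 8, 8, 7, 6 and 6 circles over the 6 time points in the hippocampus and 4 to 5 in the cortex, and Grin2b had 4 to 8 and 4 to 6. Gria1 had 2 to 6 circles at each time in the hippocampus, and in the cortex 2, 0, 3, 0, 1 and 2. Gria4 was listed at ZT13 and ZT17 in the hippocampus and at ZT9 and ZT13 in the cortex, with 1 circle each, and at 0 at the other times. The smallest count above 0 in the files was 2, so a single read would not be listed.

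Over the LD cycle no receptor gene passed the test within a tissue. The 4 genes with enough reads, Grin2b, Grm5, Grik2 and Grin2a, were tested for any difference over 6 time points. None was called in the hippocampus, against 0.143% of all host genes tested, or in the frontal cortex, against 0.157%, and none had an unadjusted p-value under 0.05 with edgeR. All genes tested gave 1 call in each tissue, and DESeq2 called 2 genes in the hippocampus and 1 in the cortex, none of them among the receptor genes. Summed over the 9 genes, the level at the 6 time points was between 41.5 ± 12.8 and 46.2 ± 0.351 in the hippocampus and between 31.1 ± 3.57 and 39.1 ± 8.32 in the cortex (SD, n = 3).

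The dark and the light phase were also compared, with 9 samples each. Of all host genes, 0% were called in the hippocampus and 0% in the cortex by edgeR, 29 and 21 had an unadjusted p-value under 0.05, and DESeq2 called 0 in both. In the frontal cortex, Grik2 had 0, 0.895 and 2.16 at ZT1 and 3.72, 4.31 and 4.35 at ZT21, while ZT5 held both 0 and the highest value of the tissue, 5.58. Its dark minus light log2 fold change there was 0.83 (SE 0.46, adj. p-value 0.998 by edgeR). Leaving out 1 sample each gave 0.66 to 1.47, both ends of this range being reached without a ZT5 sample. In the hippocampus it was 0.35 (SE 0.24, adj. p-value 0.969). The other 3 genes had values of -0.39 for Grin2a, -0.18 for Grm5 and -0.17 for Grin2b in the hippocampus, and of -0.15, -0.099 and 0.22 in the cortex.

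Grm5 had its lowest hippocampal mean at ZT21, where the samples had 8.23, 8.38 and 8.61, and its highest at ZT13, with 17.8, 14.7 and 13.1. At ZT9 its samples spread from 7.82 to 19.5. Over the 6 time points the unadjusted p-value was 0.114 (adj. p-value 0.999 by edgeR).

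**Figure D5:**
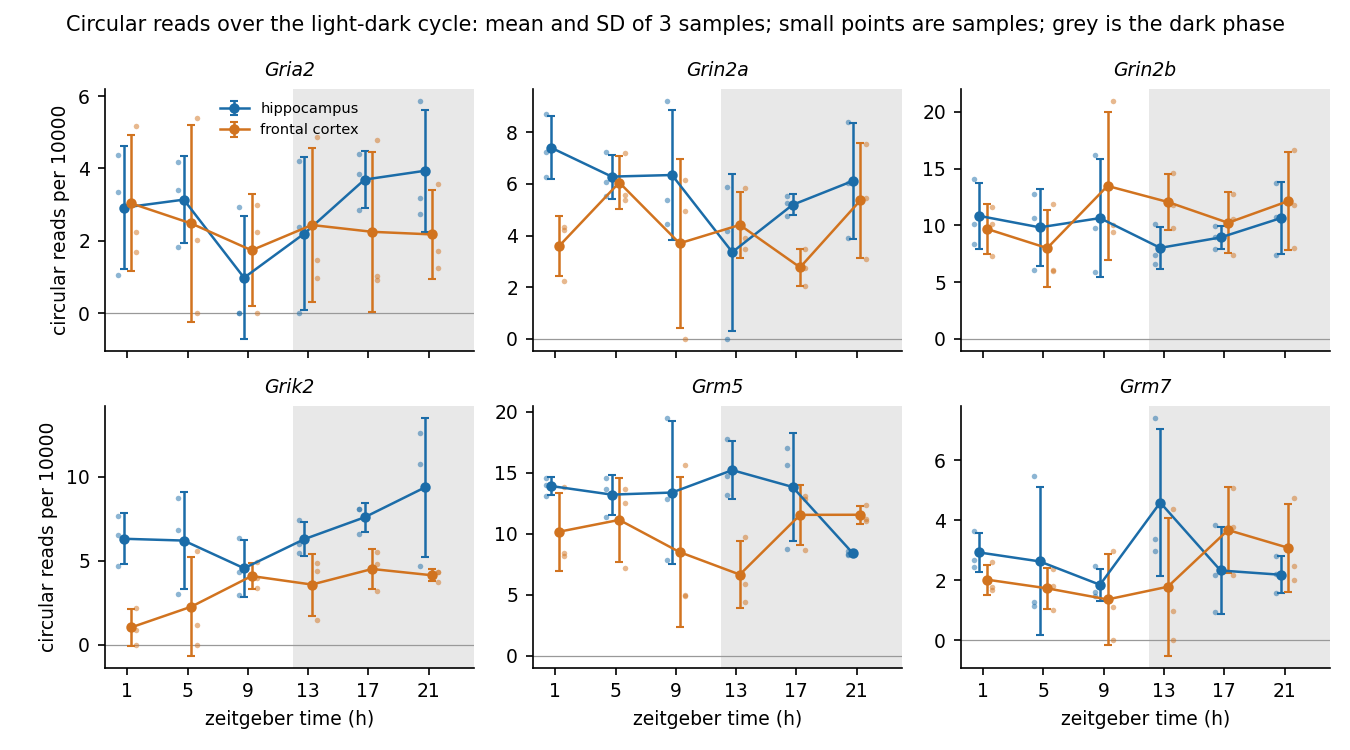
Level of 6 receptor genes (y axes, circular reads per 10000) over zeitgeber time (x axis, hours), as mean and SD of 3 samples with the samples as small points; blue is hippocampus, orange is frontal cortex, and grey marks the dark phase. Grm5 in the hippocampus lies between 8.23 and 8.61 at ZT21 but spreads from 7.82 to 19.5 at ZT9, and the errors of most time points overlap.

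A test of whether the phase difference itself differed between the tissues called 0% of the 792 host genes with edgeR, with 43 at an unadjusted p-value under 0.05, and DESeq2 called 0. The 6 receptor genes tested had estimates from -0.49 for Grik2 to 0.77 for Gria2, with standard errors of 0.48 and 0.75. Without 1 sample at a time the estimate ran from -1.13 to -0.31 for Grik2, and from 0.39 to 2.19 for Gria2. The highest was without hippocampus ZT9 replicate 3, which left that group with no Gria2 reads. For single circRNAs the phase comparison called 0% in the hippocampus and 0% in the cortex with edgeR (28 and 16 at an unadjusted p-value under 0.05), and DESeq2 called 1 and 0. The 4 receptor circles tested were not among the calls. Of these 4, the Grin2b circle of exons 6 to 10 had the largest estimate in the hippocampus, -0.36 (SE 0.19, adj. p-value 1.00 by edgeR), and it had 0.15 (SE 0.19, adj. p-value 0.993) in the cortex.

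The host genes whose profile over the 12 groups of tissue and time was most like that of a receptor gene were Tlk1 and Dnmt3a for Grin2b, Zcchc8 and Ppp1cb for Grm5, Cnot6l and Fam228b for Gria2, and Ppp1r13b and Mapk4 for Grik2. The profiles, each divided by its own sum, of the closest genes differed from that of the receptor gene by 4.33%, 5.35%, 7.39% and 9.61%. The medians over 1195 hosts were 15.0%, 16.1%, 18.2% and 21.9%. The closest genes were picked by this measure, so they lie under the median by choice.

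Circles of other receptor genes were read in the same way. Of 17 further glutamate receptor genes, 13 had circles, with 1311 reads in all, and Grin2c, Grin3b, Grm2 and Grm6 had none listed. The most reads came from Grik1 (352), Grid1 (219) and Grm3 (173). Grik1 and Grm3 entered the tissue test, and Grm3, a presynaptic and glial receptor, was lower in the hippocampus by edgeR (log2 fold change -1.36, SE 0.44, adj. p-value 0.0145), with 54 and 119 reads. Grik1, a kainate receptor subunit like Grik2, had 179 and 173 reads and -0.26 (SE 0.25, adj. p-value 0.479). Of 14 genes for auxiliary subunits of AMPA and kainate receptors, 11 had circles, with 230 reads, led by Neto2 (84), Neto1 (45) and Cacng3 (36). Cacng4, Cnih2 and Shisa6 had none listed, and none of the 14 entered the test.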

How the data were processed

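The authors mapped total RNA reads to GRCm38 with BWA 0.7.17-r1188 (option -T 19), called circRNAs from their back-spliced junctions with CIRI2 at its default settings, and deposited raw whole-number counts of circular reads for every sample, neither normalized nor pooled. The smallest count above 0 was 2. Of the deposited count columns, 1 matched no sample and was left out. Circles were matched to genes, exons and transcript sequences of GENCODE M21. Counts, single or summed per host gene, were fitted in R 4.3.3 with edgeR 4.0.16 (scaling by TMM over circular reads, the default filter on low counts, quasi-likelihood test, Benjamini-Hochberg adjustment, threshold 0.05). Fits between tissues used all 36 samples, with a separate group for each tissue and time. The tissue test compared the means of the groups of each tissue. Fits within a tissue used its 18 samples. A change common to every circRNA cannot be seen after this scaling. The expected number of circles at a common depth was computed without random draws. Sequences were aligned end to end (match 1, mismatch -1, gap opening -2, extension -0.5) with Biopython 1.88, and Python 3.11.15 with pandas 2.3.3 and matplotlib 3.10.9 was used. The tests were tested on simulated data.

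The text names all 9 genes, up to 3 circles with the most reads per gene, and each circle that passed a filter or a threshold. Circles shown as sequences come from these. The genes, lists and tests were chosen with earlier results of these data known. Alternatives were other scalings, no filter, DESeq2 1.42.0, a replicate block, leaving out samples, and stricter sets of circles. The list of cortical marker genes is not reported here.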

Additional observations from a re-analysis of the deposited data

Results flagged for a closer look

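Among groups of 9 samples of one tissue and phase, 32 were searched for a sample that lay far from the other 8, for genes with at least 100 reads and for the sum of all 9, and 3 were found. Chance flags about 1 in 20 such groups of normally distributed values, and the rate for counts this low was not measured.

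Gria1 had 3.48 circular reads per 10000 in frontal cortex ZT9 replicate 1 (7 of 20140 reads), while the next light-phase cortex sample had 1.68. Grin2b had 20.97 in frontal cortex ZT9 replicate 3 (17 of 8107 reads), the shallowest cortex sample, and the next had 11.9. Grm7 had 7.40 in hippocampus ZT13 replicate 1 (5 of 6754 reads), the shallowest hippocampus sample, and the next dark-phase sample had 3.84.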

How the results depend on the processing

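Of 406 recomputed values, leaving aside the fits without 1 sample, 368 were labelled as unchanged. For fold changes this meant the same sign and the same side of the threshold. For tests over time it meant the same side of the threshold. For numbers of calls and of circles it meant a value within a set margin of the main one. A median circle had 3 reads in all samples together. In the tissue test, receptor genes called rose from 1 to 2 of 6 with scaling to total circular reads, which added Grm5 (0.37), where 252 of all 792 host genes were called. Without the filter on low counts they were 2 of 9, with Gria1 added, where 250 of 6592 host genes were called. Without the filter, 346 of 6656 single circRNAs were called between tissues, against 217 of 710 with it. The Grm5 circle of exon 9 reached the threshold without the 3 samples of extreme depth (0.48). The cause of these changes was not tested.

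For differences over time, all host genes called in the hippocampus were 9 without the filter, 2 with DESeq2, and 0 without the 3 samples or with circles on exon ends only. In the cortex they were 8 without the filter, 2 without the 3 samples, and 0 with circles of at least 2 replicates or on exon ends only. For the phase in the hippocampus, host genes called were 2 without the filter and 1 with circles of at least 2 replicates, and single circRNAs called were 1 with scaling to total reads, 4 without the filter and 1 with DESeq2. The test between tissues of the phase difference called 2 without the filter. None of these calls was a receptor gene.

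Estimates near 0 changed sign. The Grm5 circle of exons 2 to 3 went to 0.016 between tissues with scaling to total reads and to 0.052 without the filter. Its phase estimate in the hippocampus went to 0.018 with DESeq2's size factors, 0.029 with scaling to total reads, 0.026 with DESeq2 and 0.20 without the 3 samples. The Grin2a circle of exon 2 went to 0.0066 and 0.059 with scaling to total reads and without the 3 samples, and the Grm5 circle of exon 9 to -0.056 without the filter and -0.028 without the 3 samples, both for the phase in the hippocampus.

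Circles found in the hippocampus were 34 with 2 replicates of one time point and 12 with 3, and in the cortex 19 and 12. At the common depth a sample had on average 7.20 and 5.58.

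Samples with the same replicate number did not deviate together (mean r between tissues -0.024, within tissues -0.0061 and -0.0028). Samples of other numbers at the same time gave 0.012 between tissues. No pairing by number was seen, but with all values near 0 the check cannot tell whether both tissues came from the same mice. The main fits treated the samples as independent. With the replicate block, the tissue test called 207 host genes and 168 single circRNAs, with Grik2 called, the time test 0 in both tissues, and the Grm5 circle of exons 2 to 3 went to 0.032 for the phase in the hippocampus.

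Without 1 sample at a time, host genes called between tissues were 237 to 269, with 1 to 2 receptor genes, and single circRNAs 212 to 245. The filter was looser in these fits, so more host genes and circRNAs were tested than in the main fits. Calls between tissues are thus not counted over the same set. Over time the host genes called were 0 to 2 in each tissue. By phase the calls were 0 to 1 in the hippocampus, for genes and for single circRNAs. Circles found were 89 to 99 in the hippocampus and 63 to 68 in the cortex. Grik2 stayed between 1.02 and 1.42. Values that changed sign were the tissue difference of Gria2 (-0.51 to 0.39) and of the Grm5 circle of exons 2 to 3 (-0.091 to 0.14), the cortical phase difference of Grm5 (-0.21 to 0.22), of its circle of exons 2 to 3 (-0.27 to 0.13) and of Grin2a (-0.26 to 0.014), the hippocampal one of the circles of Grin2a exon 2 (-0.19 to 0.10), Grm5 exons 2 to 3 (-0.17 to 0.18) and Grm5 exon 9 (-0.12 to 0.19), and the tissue difference of the phase effect of Grm5 (-0.39 to 0.016) and Grm7 (-0.80 to 0.14).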
